A study of Homo sapiens with 54 samples.

Results

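This account covers 37 genes of homologous recombination, the Fanconi pathway, the DNA damage checkpoint and mismatch recognition, among the 58870 genes of the deposited table. A gene was taken when the symbol in its row was on a list of 37 symbols, each of which was found once. A549 cells, an established human lung cancer line, held either a vector without insert (empty vector) or a vector that expresses USP18, and RNA was sequenced after 48 h with vehicle or a compound. USP18 is a protease that removes the ubiquitin-like modifier ISG15 from proteins, and the study sought inhibitors of it. Vehicle was DMSO, and the compounds are known from the labels only by the codes CP2 (2 and 5 µM), CP14 (1, 2.5 and 5 µM) and CP18 (1, 2.5 and 5 µM). Vehicle and the 8 compound doses in cells with either vector made 18 groups of 3 replicates, 54 libraries in all. For each vector there is 1 engineered population, and the labels do not state whether replicates were separate cultures. Library preparation is given as poly(A) capture in the labels and as depletion of ribosomal RNA in the methods. Library totals ran from 16673228 to 25609062 expected counts. The vectors were apparent in the counts, since USP18 lay between 8.77 and 12.3 CPM in the 27 empty-vector libraries and between 947 and 2115 CPM in the 27 USP18 libraries. CPM values were scaled by TMM, which sets libraries on a common scale. Keratin genes of epithelial cells were abundant (KRT8 from 1264 to 6322 CPM, KRT18 from 1658 to 5207 CPM), the blood cell gene CD3E was at 0 counts in 54 libraries, and the fibroblast gene DCN had at most 3 counts in any library. EPCAM, another epithelial gene, was low at 1.33 to 14.8 CPM, and the alveolar gene SFTPB was at 0 in 54 libraries.

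Homologous recombination repairs broken chromosomes by copying the sister chromatid, and is used mainly in the S and G2 phases, when a sister is present. Broken ends are first resected to single-stranded DNA, which replication protein A coats. BRCA1 and its partners, PALB2 and BRCA2, then prepare the strand for invasion of the sister, and motor proteins and nucleases carry the invasion and resolve the joined molecules. The Fanconi pathway removes crosslinks between DNA strands and hands the broken intermediate to recombination. ATM and ATR are the kinases that sense breaks and stalled forks, and CHEK1 and CHEK2 are their main effector kinases. Many of these genes are transcribed most in dividing cells.

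All 37 genes passed the filter on low counts in every fit, and the lowest count of any of them in any library was 48 (FANCB). With vehicle in empty-vector cells, the level per kilobase of annotated exon was highest for RPA1 (28.9 CPM per kb, SD 0.852, n = 3) and UBE2T (27.5 CPM per kb, SD 0.796, n = 3). These neighbours in the order differed by less than the sum of their SDs. RPA2, RAD50, RPA3 and EXO1 followed at 17.8, 16.2, 13.6 and 13.1 CPM per kb. The lowest levels per kilobase were those of FANCL (0.725, SD 0.0337) and FANCB (0.672, SD 0.0298), 2 subunits of the Fanconi core complex. These too differed by less than the sum of their SDs. The length used was that of all annotated exons together, 38.0 kb for FANCL and 13.3 kb for FANCB. Before this division FANCL was at 28.1, 28.4 and 26.1 CPM and FANCB at 8.52, 9.31 and 8.97 CPM. The place of FANCL in this order thus depends on its annotated length. Expected counts of RAD50 were not whole in 53 of 54 libraries, nor those of RAD54B in 52, and each overlaps another annotated gene on its own strand, so their levels include an estimated share of common fragments.

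Most of the genes fell with 5 µM CP14 when the vector was empty. Of 37, 33 were lower than with vehicle, 3 were higher, and 1 (FANCL) did not pass the test. Calls rest on edgeR's quasi-likelihood test at an adjusted p under 0.05, with any size of change. Among all 15947 genes tested, 32.1% were called lower and 31% higher. A log2 fold change under -1 was reached by 21 of the 37 genes, against 7.53% of all genes. The 37 genes were chosen with earlier results of these data known, so the shares over all genes are given as description and not as a test. The median log2 fold change was -1.06 over the 37 genes and 0.005 over all genes tested. The 3 treated libraries all lay below the 3 vehicle libraries for 33 of the 37 genes, and for 33.4% of all genes. They lay below all 24 other empty-vector libraries for 32 of the 37 genes and for 22.1% of all genes. Summed over the 37 genes, the level was 1263, 1223 and 1306 CPM with 5 µM CP14 and 2022, 1993 and 2046 CPM with vehicle. Fewer cells that express a gene and less of its RNA per cell cannot be told apart in these bulk libraries.

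**Figure D1:**
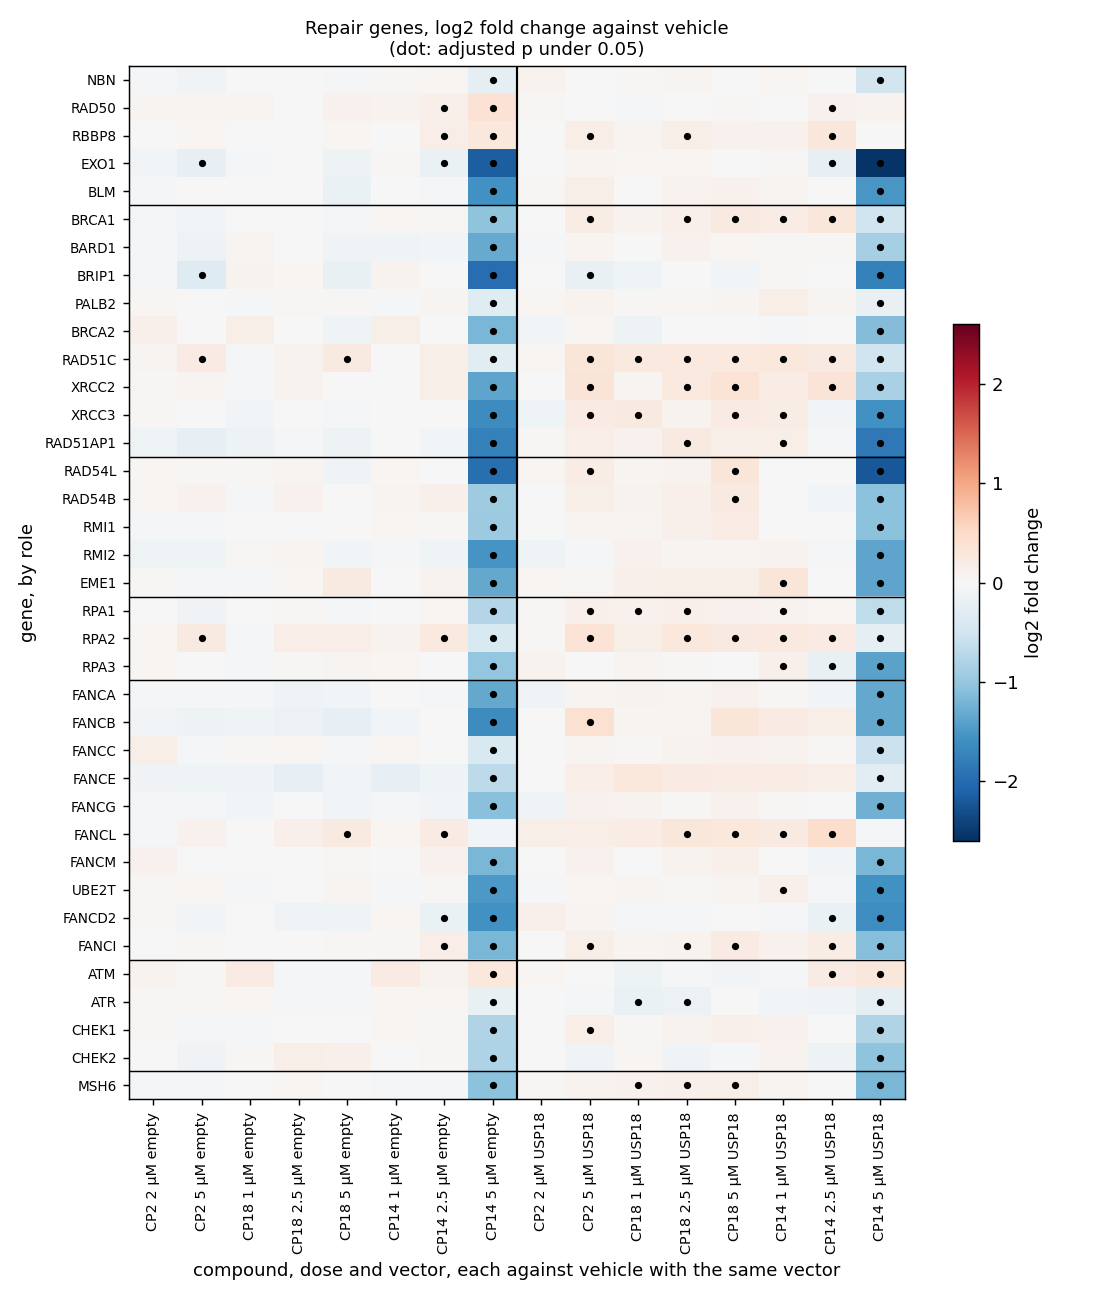
Log2 fold change of each of the 37 genes (rows, grouped by role, with lines between roles) against vehicle with the same vector, for the 8 compound doses in empty-vector cells (left) and USP18 cells (right). Dots mark an adjusted p under 0.05. The columns of 5 µM CP14 hold 36 and 34 dots, and no other column holds more than 12.

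In USP18 cells, 5 µM CP14 also lowered 33 of the 37 genes, and raised 1 (ATM). Over all genes, 34.3% were lower and 34.4% higher. Again 21 genes had a log2 fold change under -1, against 8.74% of all genes, and the median was -1.07 (0.011 over all genes tested). The 3 treated libraries lay below vehicle for 33 of the 37 genes, against 35.4% of all genes, and below all 24 other USP18 libraries for 32, against 24.6%. The summed level of the 37 genes was 1212, 1140 and 1156 CPM, where vehicle gave 1947, 1946 and 1926 CPM. In the 48 libraries other than those with 5 µM CP14, this sum ran from 1899 to 2140 CPM.

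Among the 5 genes counted under end resection, 3 fell and 2 rose in empty-vector cells. EXO1 (ENSG00000174371.17, chromosome 1 from 241847967 to 241895148; GRCh38, as all positions here), an exonuclease that extends resection, fell most of the 37. With vehicle it was at 54.8, 49.4 and 57.9 CPM in the 3 empty-vector libraries and with 5 µM CP14 at 11.7, 12.3 and 13.0 CPM, without overlap. EXO1 thus changed by -2.14 (standard error 0.077, adjusted p = 7.8e-16). In USP18 cells EXO1 went from 48.1, 46.7 and 44.7 CPM to 7.12, 9.01 and 7.93 CPM (-2.54, standard error 0.083). In the 7 other treated groups of each vector it ranged over 44.0 to 57.9 CPM (median 51.4, n = 21) with the empty vector and 39.6 to 50.5 CPM (median 47.6, n = 21) with USP18, so that the 5 µM CP14 libraries stood apart from all of them. BLM, a helicase that acts in resection and later unwinds joined molecules, fell by 1.58 on the log2 scale in empty-vector cells and by 1.52 in USP18 cells. NBN and RAD50 are subunits, with MRE11, of the complex that starts resection. NBN fell by 0.23 in empty-vector cells and by 0.48 in USP18 cells.

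RAD50 (ENSG00000113522.14, chromosome 5 from 132556019 to 132646349) was the gene that rose most in empty-vector cells, and ATM in USP18 cells. RAD50 was at 170.5, 172 and 171 CPM with vehicle and at 219.5, 221 and 226 CPM with 5 µM CP14 in cells with the empty vector (0.37, standard error 0.043, adjusted p = 1.5e-07). All 3 treated libraries exceeded the other 24 empty-vector libraries. With USP18 it was at 156, 153 and 157 CPM and 182, 158 and 159 CPM, and the change of 0.09 did not pass the test (adjusted p = 0.074). RBBP8 (ENSG00000101773.19, chromosome 18 from 22798261 to 23026488) encodes CtIP, which activates the MRE11 nuclease. RBBP8 rose from 49.5, 49.4 and 53.8 CPM to 60.6, 59.6 and 64.4 CPM in cells with the empty vector (0.27, standard error 0.049, adjusted p = 7.4e-05). In USP18 cells it was at 55.0, 57.1 and 54.5 CPM with vehicle and 57.4, 54.4 and 55.9 CPM with 5 µM CP14, values that overlap (0.00, adjusted p = 0.96).

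All 9 genes of the BRCA1 complexes and of preparation for strand invasion fell with either vector, with medians of -1.32 (empty vector) and -0.86 (USP18). BRIP1 (ENSG00000136492.8, chromosome 17 from 61679139 to 61863559), a helicase that binds BRCA1, was at 30.6, 30.4 and 33.5 CPM with vehicle and 8.29, 7.40 and 8.55 CPM with 5 µM CP14 in cells with the empty vector (-1.97, standard error 0.083, adjusted p = 9.9e-15). The USP18 libraries held 37.1, 38.4 and 39.2 CPM and 12.0, 10.0 and 11.9 CPM (-1.76, standard error 0.077). With either vector the treated libraries lay far below vehicle. RAD51AP1 (ENSG00000111247.14, chromosome 12 from 4538798 to 4560047) stimulates the pairing of DNA strands. It went from 26.6, 25.9 and 26.2 CPM to 7.47, 7.35 and 8.49 CPM with the empty vector (-1.76, standard error 0.085, adjusted p = 1.0e-13). With USP18 it went from 29.9, 28.0 and 29.2 CPM to 9.14, 7.62 and 7.42 CPM (-1.85).

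BRCA1 (ENSG00000012048.22, chromosome 17 from 43044295 to 43170245) was at 109, 111 and 115 CPM with vehicle and 52.8, 51.1 and 58.2 CPM with 5 µM CP14 in cells with the empty vector (-1.05, standard error 0.044, adjusted p = 1.0e-14). In USP18 cells it was at 104, 104 and 101 CPM and 72.5, 71.2 and 73.3 CPM (-0.52, standard error 0.043, adjusted p = 6.5e-10). Its treated libraries with USP18 all exceeded those with the empty vector, while vehicle showed the reverse order. BRCA2, which binds single-stranded DNA and is mutated in familial breast cancer, went from 24.1, 23.6 and 26.0 CPM to 11.4, 9.69 and 11.2 CPM with the empty vector (-1.20). With USP18, BRCA2 went from 27.8, 26.3 and 28.0 CPM to 12.0, 14.2 and 11.5 CPM (-1.13). The falls of BARD1, the obligate partner of BRCA1, and of XRCC2 and XRCC3 were 1.32, 1.37 and 1.63 on the log2 scale with the empty vector; RAD51C fell by 0.28 and PALB2 by 0.32.

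The 5 genes of strand invasion and joint molecules all fell, with medians of -1.33 and -1.37. RAD54L (ENSG00000085999.12, chromosome 1 from 46246461 to 46278480), a motor protein of strand invasion, was at 16.8, 16.1 and 17.7 CPM with vehicle and 3.87, 4.80 and 4.41 CPM with 5 µM CP14 in cells with the empty vector (-1.96, standard error 0.10, adjusted p = 5.2e-13). With USP18 the values were 15.2, 15.6 and 16.3 CPM and 2.95, 3.51 and 3.74 CPM (-2.21). Those treated libraries did not overlap with vehicle. RMI1 and RMI2, which work with BLM and a topoisomerase, fell by 0.95 and 1.54 on the log2 scale in empty-vector cells, the nuclease subunit EME1 fell by 1.33 and RAD54B by 0.93. The 3 subunits of replication protein A fell too. RPA1, the largest of them, went from 164, 156 and 156 CPM to 92.1, 97.5 and 93.7 CPM (-0.75, standard error 0.036) with the empty vector and from 173, 176 and 170.2 CPM to 108, 108 and 113 CPM (-0.66) with USP18. RPA2 fell by 0.40 and RPA3 by 1.00 in empty-vector cells.

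Of the 10 genes of the Fanconi pathway, 9 fell with either vector, with medians of -1.19 and -1.23. FANCD2, which is ubiquitinated together with FANCI when the pathway is active, was at 59.1, 60.0 and 58.6 CPM with vehicle and 20.6, 19.9 and 19.5 CPM with 5 µM CP14 in cells with the empty vector (-1.57, standard error 0.053, adjusted p = 2.4e-16). In USP18 cells FANCD2 was at 55.2, 54.7 and 56.9 CPM and 19.0, 18.3 and 17.4 CPM (-1.62). Neither pair of groups overlapped. FANCB (ENSG00000181544.15, chromosome X from 14690388 to 14873255), a core complex subunit, was with FANCL the lowest per kilobase of annotated exon, a length that is greater for FANCL. Its level was 8.52, 9.31 and 8.97 CPM and then 3.33, 2.65 and 2.65 CPM with the empty vector (-1.64, standard error 0.14). It was at 9.16, 7.61 and 8.80 CPM and 3.93, 3.22 and 3.07 CPM with USP18 (-1.33, standard error 0.13). Falls on the log2 scale in empty-vector cells were 1.49 for UBE2T, the conjugating enzyme of the pathway, 1.33 for FANCA, 1.19 for FANCI, 1.19 for FANCM, 1.08 for FANCG, 0.67 for FANCE and 0.41 for FANCC. FANCL, the ubiquitin ligase subunit, was at 28.1, 28.4 and 26.1 CPM and 26.9, 25.8 and 26.5 CPM in cells with the empty vector (-0.06, adjusted p = 0.47), values that overlap.

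Among the 4 checkpoint kinases, 3 fell and ATM rose, with either vector. ATM (ENSG00000149311.18, chromosome 11 from 108223044 to 108369102) was at 62.4, 58.2 and 53.7 CPM with vehicle and 74.1, 63.4 and 73.2 CPM with 5 µM CP14 in cells with the empty vector (0.27, standard error 0.068, adjusted p = 0.0017). With USP18 it went from 54.8, 51.1 and 52.4 CPM to 69.5, 66.4 and 57.7 CPM (0.28, adjusted p = 0.0011). Vehicle and treated libraries were separate, but some libraries of other treatments reached the treated level (highest 74.9 CPM with the empty vector). CHEK1, the effector of ATR, was at 51.9, 56.4 and 54.1 CPM and 33.8, 30.8 and 30.3 CPM in cells with the empty vector (-0.78) and at 47.0, 46.1 and 45.6 CPM and 29.6, 26.7 and 24.6 CPM in USP18 cells (-0.78). For CHEK2, the effector of ATM, the values were 16.9, 20.3 and 17.9 CPM and 10.7, 10.9 and 9.87 CPM with the empty vector (-0.81), and 23.0, 20.3 and 20.7 CPM and 10.9, 10.4 and 9.93 CPM with USP18 (-1.04). Both effector kinases lay below vehicle in each treated library. ATR changed least of the 3, from 62.1, 58.4 and 62.2 CPM to 53.5, 52.5 and 53.9 CPM with the empty vector (-0.20, adjusted p = 0.0012) and from 60.8, 66.1 and 68.1 CPM to 55.8, 56.4 and 54.4 CPM with USP18 (-0.23). MSH6, which recognises mismatched bases, fell by 1.06 on the log2 scale in empty-vector cells and also fell in USP18 cells.

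**Figure D2:**
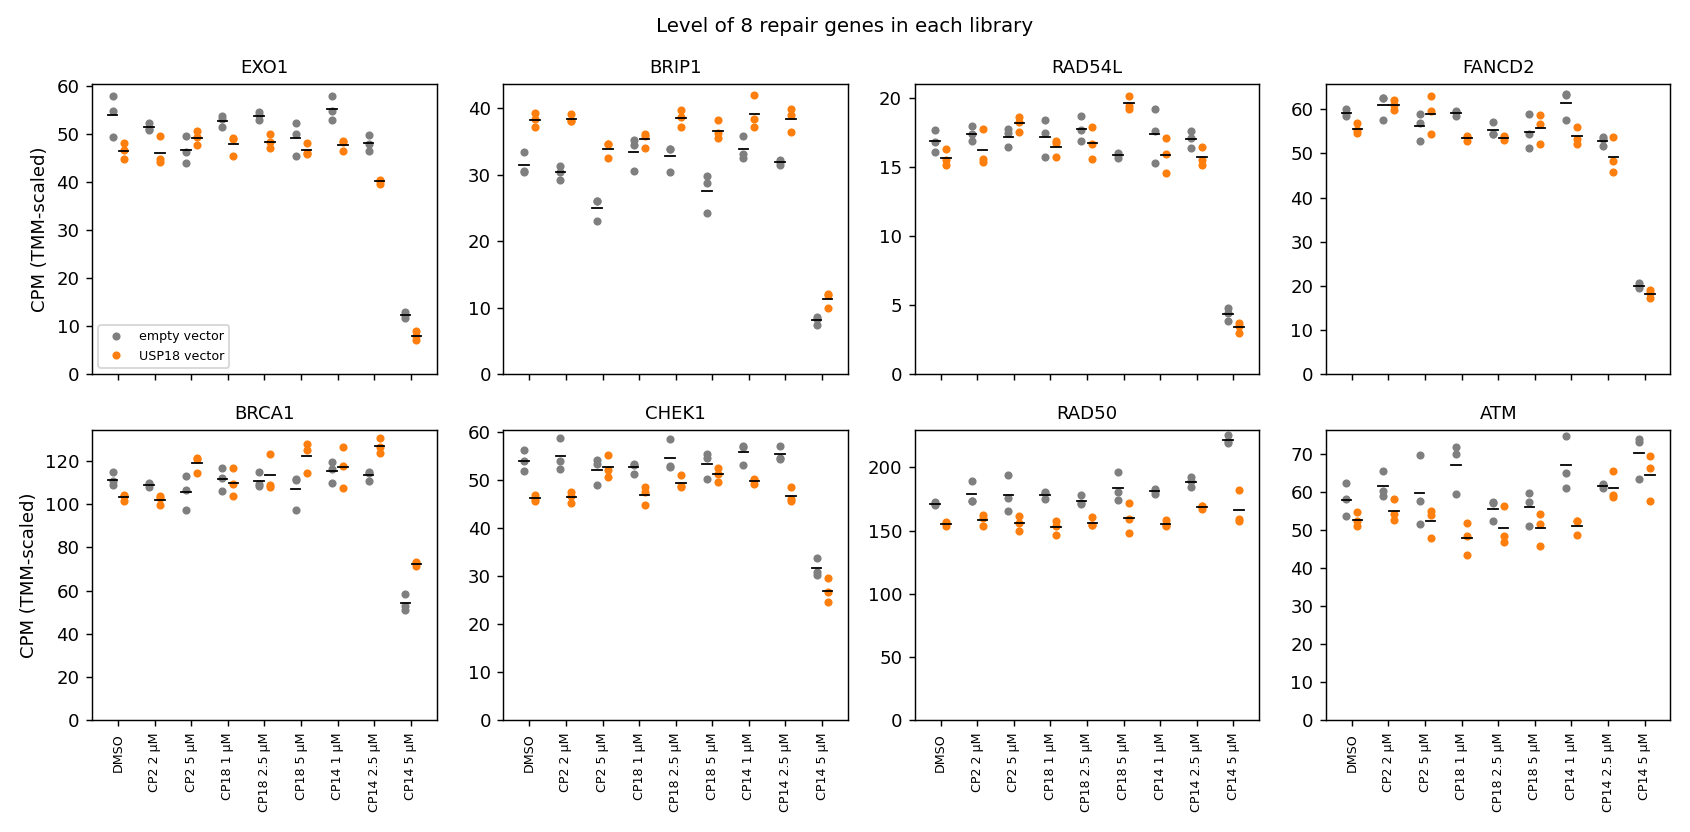
Level of 8 genes in each of the 54 libraries (points, TMM-scaled CPM on a linear axis from 0; black bars are means of 3) by treatment and vector. EXO1, BRIP1, RAD54L, FANCD2, BRCA1 and CHEK1 are lowest in the 5 µM CP14 libraries, and RAD50 is highest there with the empty vector.

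Genes that fell together can be set beside their promoters. RefSeq windows of 300 bases (GRCh38.p14, 250 before to 50 after the transcription start) were available for 31 of the 37 genes, 10 of them with several windows, and not for RAD54B, FANCI, NBN, RPA2, RPA3 and RMI2. Windows were searched on both strands for the E2F-type motifs TTTGGCGC, TTTCCCGC and TTTCGCGC, for TTTGAA (the cell cycle homology region) and for CCAAT, and a gene was counted when any of its windows held the letters. An E2F-type motif was in 5 of 31 genes (16.1%), against 3.3% of 27305 genes. Those genes were EXO1, FANCC, FANCD2, XRCC2 and MSH6. Restricted to genes with 1 window, the count was 2 of 21 (9.52%), against 2.69%. TTTGAA was in 4 of 31 genes (12.9%, all genes 18.2%) and CCAAT in 16 of 31 (51.6%, all genes 39.7%). For 16 genes of replication and S phase, the E2F-type share was 75%, and for 13 mitosis genes the share with TTTGAA was 61.5%. A match describes letters in the window and was not tested as a site. Genes that fell without an E2F-type motif in any window included BRIP1, RAD54L, RAD51AP1 and FANCB, which are not shown. Shown are 3 genes that fell and hold an E2F-type motif, in capitals, and RAD50, which rose in empty-vector cells and has none in its window.
EXO1 (chr1:241847954-241848253, plus strand): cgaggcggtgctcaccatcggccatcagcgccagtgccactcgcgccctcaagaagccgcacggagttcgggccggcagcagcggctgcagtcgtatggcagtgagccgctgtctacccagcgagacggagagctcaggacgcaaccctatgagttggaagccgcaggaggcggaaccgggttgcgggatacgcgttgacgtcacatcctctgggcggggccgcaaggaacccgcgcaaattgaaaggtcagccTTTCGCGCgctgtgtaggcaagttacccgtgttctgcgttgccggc
FANCD2 (chr3:10026187-10026486, plus strand): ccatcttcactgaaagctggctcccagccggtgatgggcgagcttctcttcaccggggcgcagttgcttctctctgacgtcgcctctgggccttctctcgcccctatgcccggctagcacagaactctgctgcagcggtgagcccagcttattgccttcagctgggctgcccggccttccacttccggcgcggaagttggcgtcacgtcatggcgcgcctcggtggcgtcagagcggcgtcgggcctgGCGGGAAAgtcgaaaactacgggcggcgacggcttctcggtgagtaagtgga
XRCC2 (chr7:152676092-152676391, minus strand): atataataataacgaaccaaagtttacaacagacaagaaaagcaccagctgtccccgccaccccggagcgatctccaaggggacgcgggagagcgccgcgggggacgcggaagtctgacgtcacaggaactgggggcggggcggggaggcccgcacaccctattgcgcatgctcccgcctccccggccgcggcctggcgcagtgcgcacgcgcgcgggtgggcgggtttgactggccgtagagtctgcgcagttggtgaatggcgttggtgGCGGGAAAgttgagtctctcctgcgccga
RAD50 (chr5:132556727-132557026, plus strand): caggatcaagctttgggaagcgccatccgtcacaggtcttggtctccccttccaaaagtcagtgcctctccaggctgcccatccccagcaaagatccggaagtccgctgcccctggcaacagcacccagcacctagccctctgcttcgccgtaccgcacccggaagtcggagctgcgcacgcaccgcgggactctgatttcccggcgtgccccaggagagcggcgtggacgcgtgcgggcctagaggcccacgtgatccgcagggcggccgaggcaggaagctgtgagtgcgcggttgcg

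Whether the response to 5 µM CP14 differed between the vectors was tested as an interaction, the log2 fold change in USP18 cells minus that in empty-vector cells. With 1 population for each vector, an effect of USP18 on the response cannot be told apart from a difference between the populations. The interaction was called for 8 of the 37 genes (all genes 27.7%), 3 above 0 (all genes 13.3%) and 5 below 0 (all genes 14.4%), so that these calls were no more frequent than over all genes. BRCA1, whose library values stand above, had an interaction of 0.53 (standard error 0.062, adjusted p = 1.5e-06). XRCC2 went from 27.8, 27.0 and 29.6 CPM to 10.7, 8.99 and 13.2 CPM with the empty vector and from 24.1, 23.7 and 23.3 CPM to 12.6, 14.2 and 13.2 CPM with USP18, an interaction of 0.53 (standard error 0.14, adjusted p = 0.0052). BARD1 went from 16.5, 17.6 and 18.6 CPM to 7.20, 6.05 and 8.05 CPM and from 15.1, 16.3 and 14.2 CPM to 9.04, 8.56 and 7.73 CPM, an interaction of 0.46 (standard error 0.14, adjusted p = 0.022). All 3 fell less in USP18 cells. The call for BARD1 was lost with DESeq2 and in 3 of the 12 fits that left out a library (0.41 without empty-vector vehicle replicate 3, 0.42 without USP18 vehicle replicate 3, 0.35 without empty-vector CP14 replicate 2). Below 0 were EXO1 (-0.40), RPA3 (-0.40), RAD50 (-0.28), RBBP8 (-0.26) and NBN (-0.24). EXO1 lost its call without replicate 1 of 5 µM CP14 in USP18 cells (-0.31).

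**Figure D3:**
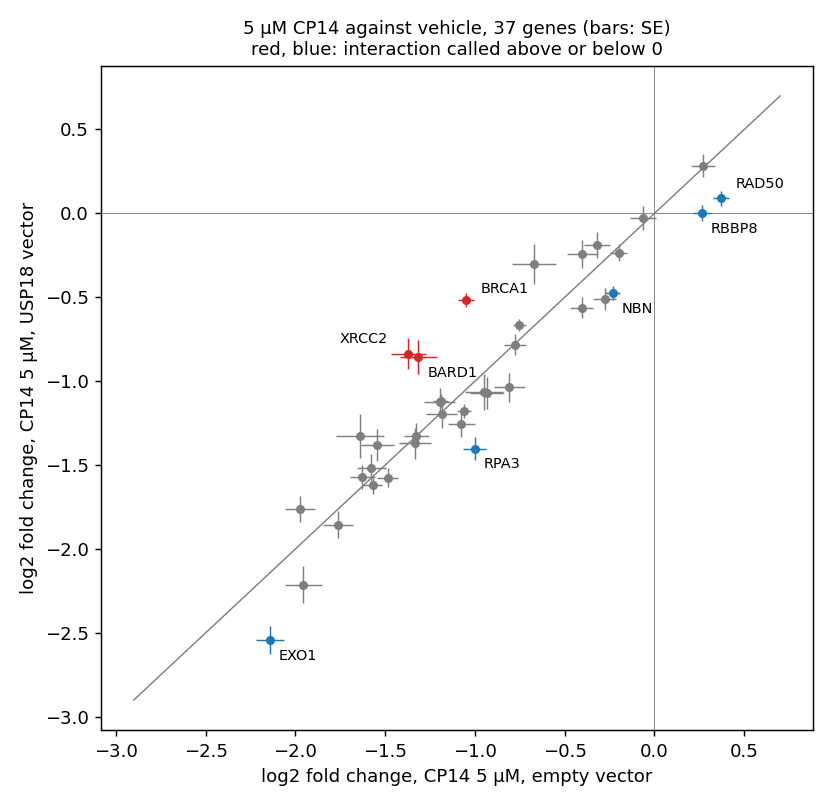
Log2 fold change with 5 µM CP14 in empty-vector cells (horizontal) and in USP18 cells (vertical) for the 37 genes, with standard errors as bars; the diagonal marks equal change. Red points are the 3 genes with a called interaction above 0 and blue points the 5 with one below 0.

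CP14 at 2.5 µM changed few of the genes and none past a log2 fold change of 1. In empty-vector cells 5 rose (all genes 7.06%) and 2 fell (all genes 8.07%). The falls were in EXO1 (-0.18) and FANCD2 (-0.17), and the rises, from 0.14 to 0.25, in FANCI, FANCL, RAD50, RBBP8 and RPA2. This count of 7 was 3 without replicate 1 or 3 of the treated group, and 4 without its replicate 2 or without vehicle replicate 1 or 2. In USP18 cells 9 rose (all genes 16.3%) and 3 fell (all genes 16.4%), with EXO1 (-0.21), RPA3 (-0.19) and FANCD2 (-0.18) lower. EXO1 was at 46.4, 48.0 and 49.8 CPM with the empty vector and 40.2, 40.4 and 39.6 CPM with USP18 at this dose. BRCA1 rose in USP18 cells to 126, 130.4 and 123 CPM (0.30, adjusted p = 2.0e-06) and was at 111, 115 and 114 CPM with the empty vector, the only interaction called at this dose (0.27, adjusted p = 0.0017; all genes above 0 4.08%). At 5 µM BRCA1 fell with either vector, so its direction differed between these doses in USP18 cells.

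At 5 µM, CP18 and CP2 gave small changes, none past a log2 fold change of 1. With CP18 in empty-vector cells 2 genes rose, RAD51C (0.22) and FANCL (0.24), where 4.09% of all genes did. These calls depended on the libraries fitted, with 0 called without replicate 2 of vehicle or of CP18, and 1 without replicate 1 or 3 of vehicle or replicate 3 of CP18. In the same fits, 1 was called without vehicle replicate 3 or any of the 3 CP18 replicates of USP18 cells. In USP18 cells 10 rose, from 0.15 (MSH6) to 0.36 (XRCC2), against 4.32% of all genes. That count was 4 or 5 without vehicle replicate 3 or 1, and 5, 6 and 6 without treated replicates 1, 2 and 3. With CP2 in empty-vector cells RAD51C and RPA2 rose (all genes 5.31%) and BRIP1 and EXO1 fell (all genes 6.83%), and 2 genes were called without replicate 2 or 3 of either vehicle or CP2. In USP18 cells 11 rose (all genes 8.65%), with FANCB highest (0.39), and BRIP1 fell (-0.18; all genes lower 10.3%). Without vehicle replicate 3, 7 genes were called. The interaction was called for RPA1 with CP2 (0.22; all genes above 0 0.266%) and in 5 of 12 fits that left out a library. DESeq2 called 3 genes. The number of genes with that interaction was 0 without empty-vector vehicle replicate 1 or any of the 6 USP18 libraries, 2 without empty-vector vehicle replicate 2 or CP2 replicate 3, and 3 without empty-vector CP2 replicate 2. With CP18 edgeR called it for 0 genes (12 at an unadjusted p under 0.05, 1 with DESeq2; 1 gene without empty-vector CP18 replicate 1), against 0.268% of all genes.

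The lower doses are described together. Between them, 15 of the 37 genes were called with 1 µM CP14, 1 or 2.5 µM CP18 or 2 µM CP2 with either vector, against 26.5% of all genes, and 8 were called without vehicle replicate 3 of USP18 cells. In empty-vector cells edgeR called 0 genes at each of these doses, with 2, 2, 3 and 4 at an unadjusted p under 0.05 and 0 with DESeq2 (1 gene for 1 µM CP18 without its replicate 1). The background was 0.861% for 1 µM CP14, 0.368% for 1 µM CP18, 5.96% for 2.5 µM CP18 and 1.84% for 2 µM CP2. In USP18 cells 1 µM CP14 raised 10 genes (all genes 7.4%), with EME1 highest (0.31), whereas DESeq2 called 5. With 1 µM CP18, 4 rose (all genes 7.74%) and ATR fell (-0.18; all genes lower 8%). With 2.5 µM CP18, 10 rose (all genes 7.19%) and ATR fell (-0.15; all genes lower 7%). CP2 at 2 µM gave 0 calls in USP18 cells (2 at an unadjusted p under 0.05, 0 with DESeq2; all genes 1.13%).

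All comparisons of a compound dose in USP18 cells share the same 3 vehicle libraries. RAD51C, for example, was at 30.8, 30.7 and 30.1 CPM with vehicle, and its log2 fold change was 0.28 with 1 µM CP14, 0.26 with 1 µM CP18, 0.25 with 2.5 µM CP18, 0.25 with 5 µM CP18 and 0.32 with 5 µM CP2. Against the same libraries it was 0.23 with 2.5 µM CP14, 0.05 with 2 µM CP2 and -0.51 with 5 µM CP14. RAD51C was singled out after its values were seen. Without vehicle replicate 3 in USP18 cells, the genes called were 3 with 1 µM CP14, 1 with 1 µM CP18 and 7 with 2.5 µM CP18. Without vehicle replicate 2, the first of these counts was 6 and the next 2. Treated libraries mattered as well, with 5 and 4 called for 1 µM CP14 without replicates 1 and 2, and 3 and 2 for 1 µM CP18 without replicates 2 and 3. Among interactions at these doses, 1 µM CP18 gave RAD51C (0.29) and XRCC3 (0.30) above 0 (all genes 2.78%) and ATM (-0.36) below 0 (all genes 4.41%). These held in 2, 3 and 5 of 12 fits that left out a library. The number called was 0 without vehicle replicate 3 of either vector, USP18 vehicle replicate 2, empty-vector CP18 replicate 2 or USP18 CP18 replicate 3. It was 1 without vehicle replicate 1 of either vector or USP18 CP18 replicate 2. For 1 µM CP14, 2.5 µM CP18 and 2 µM CP2, edgeR called 0 interactions (11, 7 and 2 at an unadjusted p under 0.05; 0, 0 and 1 with DESeq2; for 1 µM CP14, 1 without empty-vector vehicle replicate 2 or CP14 replicate 3 and 2 without USP18 CP14 replicate 3), against 5.79%, 0.197% and 0.0569% of all genes.

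The compounds were compared directly at 5 µM in 6 contrasts, whose p-values were adjusted together. Between CP14 and CP18, 37 genes were called with at least 1 of the vectors, against 71.7% of all genes. With the empty vector, 34 of the 37 genes were lower with CP14 than with CP18 (all genes 28.2%) and 3 higher (27%), with a median log2 difference of -1.05. In USP18 cells 34 were lower (31.4%) and 1 higher (30.4%), with a median of -1.28. Against CP2, CP14 gave 33 lower (28%) and 2 higher (26.6%) with the empty vector, and 35 lower (31.7%) and 1 higher (30.9%) with USP18. EXO1, for instance, was lower with CP14 than with CP18 by a log2 difference of -2.00 (standard error 0.077) with the empty vector and -2.55 (standard error 0.081) with USP18. Between CP18 and CP2, EME1 was higher with CP18 in cells with the empty vector (0.26; all genes higher 1.28%). In USP18 cells edgeR called 0 genes (0 at an unadjusted p under 0.05 and 0 with DESeq2; all genes 2.34%), and the approximate 95% intervals of the log2 differences reached from -0.31 to 0.31 over the 37 genes.

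With vehicle alone, USP18 cells differed from empty-vector cells in 22 of the 37 genes, 8 higher (all genes 29%) and 14 lower (all genes 28.7%), none past a log2 fold change of 1. Both directions together, these calls were about as frequent as over all genes. DESeq2 called 13. The 3 largest differences downward were in genes of separate roles. PALB2, the bridge between BRCA1 and BRCA2, was at 28.2, 24.3 and 28.3 CPM with the empty vector and 17.7, 17.3 and 17.8 CPM with USP18 (-0.62, standard error 0.071, adjusted p = 7.6e-07). RMI2 was at 34.9, 37.8 and 36.7 CPM and 22.7, 23.7 and 25.7 CPM (-0.60, standard error 0.064, adjusted p = 2.8e-07). FANCA, a core complex subunit, was at 50.9, 46.6 and 51.8 CPM and 33.6, 34.0 and 33.8 CPM (-0.56, standard error 0.052, adjusted p = 5.6e-08). In none of these did the libraries overlap. With the 7 treatments other than 5 µM CP14, PALB2 ranged over 24.0 to 30.5 CPM (median 27.5, n = 21) with the empty vector and 17.1 to 20.7 CPM (median 18.6, n = 21) with USP18, RMI2 over 32.2 to 40.1 CPM (median 35.1, n = 21) and 20.7 to 27.7 CPM (median 24.7, n = 21), and FANCA over 43.8 to 51.6 CPM (median 47.8, n = 21) and 29.2 to 39.0 CPM (median 34.4, n = 21). The vectors stayed apart for all 3 genes in these libraries. Upward, FANCC was at 26.0, 26.0 and 26.6 CPM and 32.9, 35.9 and 32.9 CPM (0.37, standard error 0.060, adjusted p = 3.9e-05). BRIP1, given above, differed by 0.28 (standard error 0.057, adjusted p = 0.00044). FANCM, a DNA translocase, was at 20.0, 20.5 and 20.5 CPM and 25.4, 23.8 and 22.2 CPM (0.23, standard error 0.067, adjusted p = 0.0078). With 1 population for each vector, an effect of USP18 and a difference between the populations cannot be told apart.

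**Figure D4:**
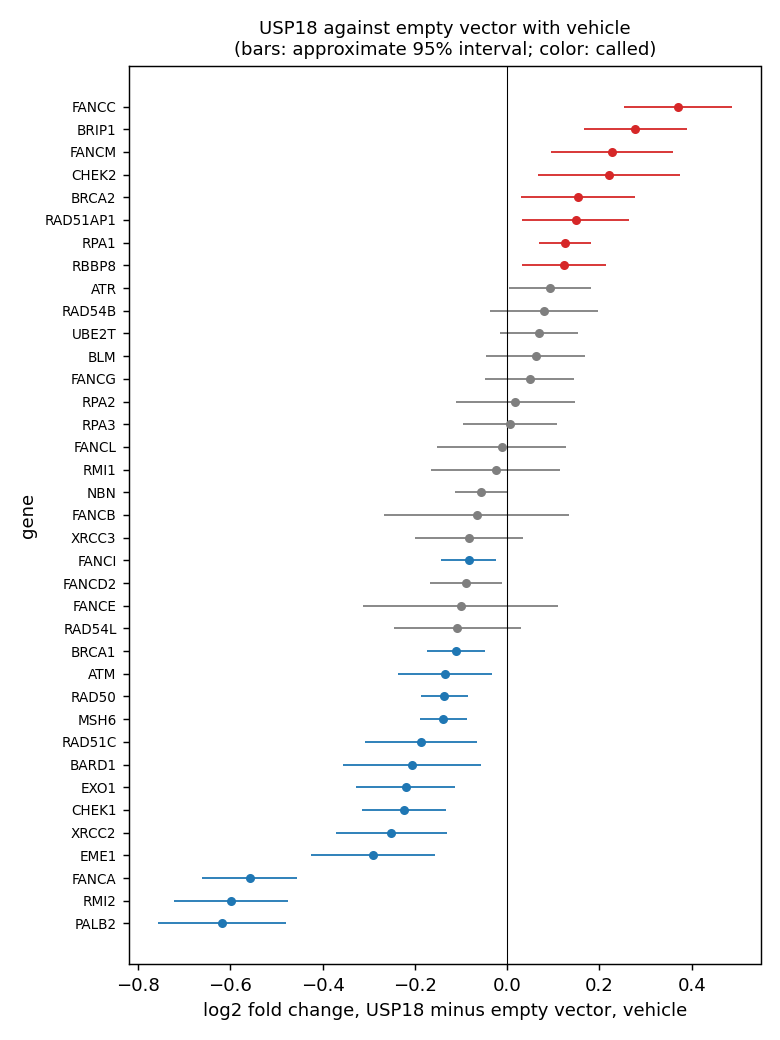
Log2 fold change of the 37 genes between USP18 and empty-vector cells with vehicle, in order of size, with approximate 95% intervals. Red points (8) were called higher and blue points (14) lower; PALB2, RMI2 and FANCA lie lowest.

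Other genes of these pathways were set beside the 37, from lists described by counts and medians. With 5 µM CP14 in empty-vector cells, 32.1% of all genes were lower and 31% higher, and the counts of some lists, such as nucleotide excision repair, lie near those shares. In that comparison, 16 of 31 other homologous recombination genes fell and 8 rose (median -0.27), with DNA2 (-1.89), a resection nuclease, and TONSL (-1.66), which acts at stalled forks, changed most. Of 12 other Fanconi genes 6 fell and 3 rose (median -0.18), with CENPX at -1.15 and CENPS at -0.81. Of 20 other checkpoint genes 15 fell and 1 rose (median -0.56), led by CLSPN (-1.86), the adaptor of CHEK1, and H2AFX (-1.71), a histone variant phosphorylated at breaks. Among 11 end joining genes 5 fell and 3 rose (median -0.15), with POLQ at -1.57 and LIG4 at 0.57. Mismatch repair had 2 of 6 lower and 3 higher (median 0.04), with PMS1 at 0.47. Base excision and single-strand break repair had 8 of 13 lower and 2 higher (median -0.33), with UNG at -1.19 and NTHL1 at -0.75. Nucleotide excision repair had 4 of 12 lower and 4 higher (median -0.03), with XPC at 0.71. In USP18 cells the list medians were -0.27, -0.36, -0.42, -0.42, -0.21, -0.45 and 0.09 in the same order of lists.

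Genes of cell division moved in the same libraries. All 20 genes of replication and S phase fell in empty-vector cells (median -1.65) and in USP18 cells (median -1.75), led by RRM2 (-2.13 with the empty vector) and GINS2 (-2.02). All 15 mitosis genes fell as well (medians -1.98 and -1.86), led by MKI67 (-2.42) and KIF11 (-2.29). Their summed levels in the 6 libraries with 5 µM CP14 ran from 780 to 1008 CPM for replication and S phase and from 760 to 847 CPM for mitosis, and in the 48 other libraries from 2267 to 2898 CPM and from 2267 to 3583 CPM. With 2.5 µM CP14 in USP18 cells, 13 of 15 mitosis genes fell (median -0.25), where 16.4% of all genes did and the 37 repair genes had a median of 0.01. The mitosis sum was 2267, 2677 and 2823 CPM there, and without replicate 1, the lowest, 10 genes were called (median -0.17). With the empty vector edgeR called 0 mitosis genes at this dose (median 0.02; 0 at an unadjusted p under 0.05 and 0 with DESeq2). Of 20 replication and S phase genes at this dose, 5 were lower and 0 higher with the empty vector (median -0.07; 12 at an unadjusted p under 0.05, 5 called with DESeq2; all genes lower 8.07%), and 5 lower and 2 higher with USP18 (median -0.03; all genes 16.4% and 16.3%). The lists also moved in other comparisons. Replication and S phase genes were higher in 7 of 20 with 5 µM CP18 and 11 of 20 with 5 µM CP2 in USP18 cells (medians 0.15 and 0.16), and mitosis genes in 3 and 6 of 15, where 4.32% and 8.65% of all genes were higher. In empty-vector cells CP18 lowered 1 of 20 replication genes (4 called with DESeq2; all genes 674 of 15662) and CP2 lowered 5 (5 with DESeq2; all genes 6.83%). There, mitosis genes were higher in 5 of 15 with CP18 (6 with DESeq2; all genes 4.09%) and in 8 of 15 with CP2 (4 with DESeq2; all genes 5.31%). Between the vectors with vehicle, 13 of 20 replication genes were lower and 1 higher with USP18, and 10 of 15 mitosis genes higher and 3 lower, against 29% of all genes higher and 28.7% lower. USP18 itself was at 2047 CPM (SD 76.1, n = 3) with 5 µM CP14 and 1307 CPM (SD 18.6, n = 3) with vehicle in USP18 cells. The part of cell division and of the USP18 level in the results for the repair genes was not tested.

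**Figure D5:**
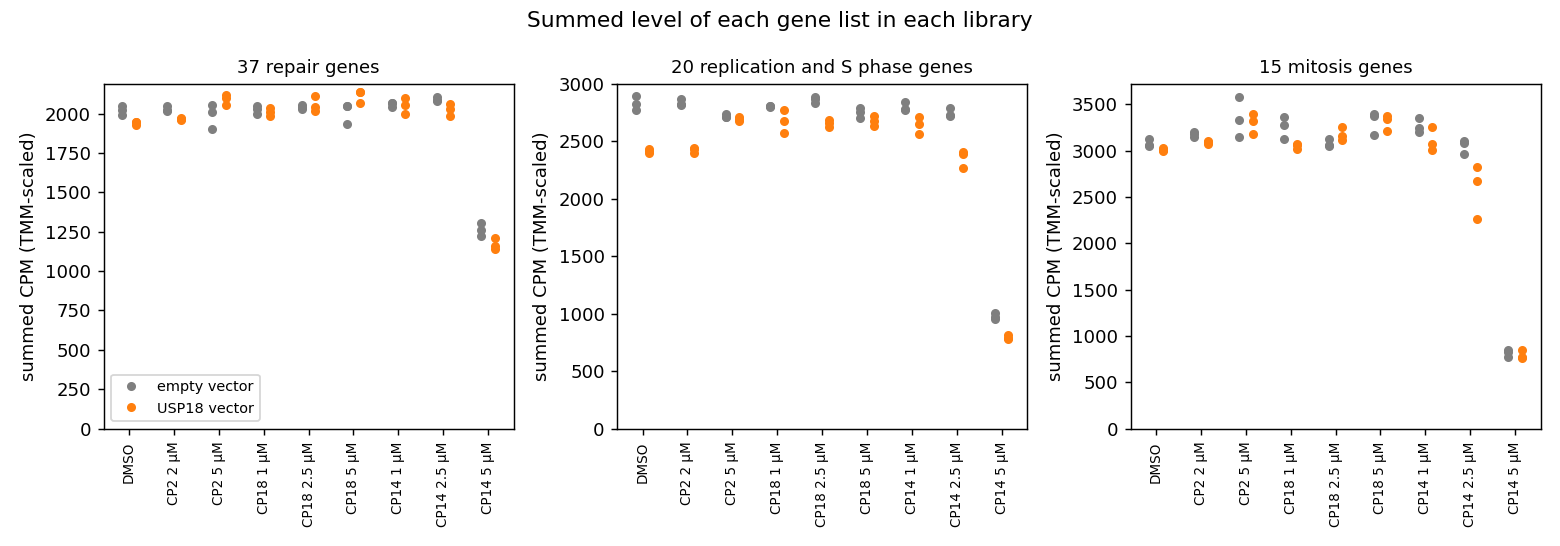
Summed TMM-scaled CPM of the 37 repair genes, of 20 replication and S phase genes and of 15 mitosis genes in each library (points), by treatment and vector, on linear axes from 0. The 6 libraries with 5 µM CP14 lie below the 48 others in each panel.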

How the data were processed

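RNA of 54 libraries was sequenced by the authors, who trimmed reads with Cutadapt 1.18, aligned them with STAR 2.7.0f to hg38 and deposited expected counts per gene from RSEM (1.3.1 in the submitters' notes), of which 94.0% are whole. Counts were rounded and tested in R 4.3.3 with edgeR 4.0.16 (TMM, filterByExpr at 10 and 15 counts, quasi-likelihood F test, p adjusted by Benjamini-Hochberg over all genes). Each compound dose was fitted with vehicle, both vectors, on 12 libraries, vehicle on 6 and the compounds at 5 µM on 18. Standard errors are the absolute log2 fold change over the square root of F. Replicates of a group varied beyond counting noise, with chi-square values per gene between 1.79 and 10.2 in 54 pairs; the highest were 10.2 and 8.08 for replicate 3 of 5 µM CP18 with the empty vector against replicates 2 and 1, and 8.08 for replicates 2 and 3 of 5 µM CP2 with the empty vector.

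The 37 genes and all lists were chosen with earlier results of these data known. Genes given by library, with vehicle and where tested with 5 µM CP14, were the 5 largest falls and 3 largest rises called with 5 µM CP14 in empty-vector cells, the 3 largest falls and rises between vectors with vehicle, the 4 largest called interactions at 5 µM CP14, and BRCA1, BRCA2, FANCD2, ATM, ATR, CHEK1, CHEK2 and RPA1. FANCL and RAD51C are also given by library and were chosen after their values were seen. From each other list, the 2 called genes that changed most are named, except for some that are not reported here. Positions and exon lengths are from GENCODE v44, promoter windows from RefSeq. Promoter matches were first counted only in genes with 1 window, which left out 10 of the 31 genes with windows. Counting every window was chosen after that count was seen. Both counts are given for the E2F-type motif in the 37 genes. For the other motifs and lists only the count over every window is given. Alternatives were RLE scaling, keeping every gene with a count, keeping genes with 10 or more counts in each library, a block for replicate number, DESeq2 1.42.0, only the 2 groups compared, all 54 libraries in 1 fit, and leaving out each library.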

Additional observations from a re-analysis of the deposited data

Results flagged for a closer look

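Differences between the vectors in the response to a compound were tested as interactions (log2 fold change in USP18 cells minus that in empty-vector cells). An effect of USP18 on the response cannot be told apart here from a difference between the engineered populations. Genes were called with 5 and 2.5 µM CP14, 5 µM CP2 and 1 µM CP18. With 5 µM CP14 the share was 8 of 37 genes, where 27.7% of all genes were called. With 5 µM CP14 these were BRCA1 (0.53), XRCC2 (0.53), BARD1 (0.46), EXO1 (-0.40), RPA3 (-0.40), RAD50 (-0.28), RBBP8 (-0.26) and NBN (-0.24). BRCA1 was also called with 2.5 µM CP14 (0.27; all genes above 0 4.08%). RPA1 was called with 5 µM CP2 (0.22; all genes above 0 0.266%), and RAD51C (0.29), XRCC3 (0.30) and ATM (-0.36) with 1 µM CP18 (all genes above 0 2.78%, below 0 4.41%). BRCA1 kept its call at both doses in each of the 12 fits that left out a library, whereas RPA1 kept it in 5 of 12, and RAD51C, XRCC3 and ATM in 2, 3 and 5 of 12. The calls for BRCA1 are not independent, since every dose is compared with the same vehicle libraries. With other treatments its interaction was not called by edgeR. It was 0.27 with 5 µM CP2, 0.29 with 5 µM CP18 and 0.15 with 2.5 µM CP18. With 1 µM CP14, 1 µM CP18 and 2 µM CP2 it was 0.14, 0.09 and 0.01. Single libraries were not tested for standing apart within their group of 3.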

How the results depend on the processing

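With 5 µM CP14 the number of genes called was 36 under each alternative and each left-out library in empty-vector cells, 32 to 34 under the alternatives and 31 to 34 with a library left out in USP18 cells, and 7 to 9 for the interaction under either. CP14 against CP18 gave 37 under each when genes called with at least 1 vector are counted, and under the alternatives 35 to 37 with the empty vector and 34 to 36 with USP18. Under the alternatives, the counts that moved by over 1.5 times were those for 5 µM CP18 in empty-vector cells (2; 1 with RLE size factors, 1 with the replicate block, 1 with DESeq2, 0 with only the 2 groups compared and 5 with all 54 libraries in 1 fit), for 5 µM CP18 in USP18 cells (10; 16 with only the 2 groups), for 5 µM CP2 in empty-vector cells (4; 1 with only the 2 groups) for the vectors with vehicle (22; 13 with DESeq2), for 1 µM CP14 in USP18 cells (10; 5 with DESeq2, 6 with all 54 libraries) and for CP18 against CP2 with the empty vector (1; 2 with all 54 libraries). So did the interaction with 5 µM CP2 (1; 5 without the filter, 2 with 10 counts in every library, 3 with DESeq2, 3 with all 54 libraries). Of the edgeR counts of 0, those for 1 µM CP14 and 1 µM CP18 with the empty vector became 1 without the filter. The 0 interactions became 2 without the filter and 1 with all 54 libraries for 1 µM CP14, 1 without the filter, 1 with DESeq2 and 3 with all 54 libraries for 5 µM CP18, and 1 with DESeq2 for 2 µM CP2. The cause was not tested. Leaving out each library gave 3 to 8 genes for 2.5 µM CP14 in empty-vector cells, 10 to 12 in USP18 cells, 0 to 3 and 4 to 15 for 5 µM CP18, 2 to 5 and 7 to 16 for 5 µM CP2, 16 to 20 for the vectors with vehicle and 8 to 16 for the lower doses together. No gene given by library changed direction in the comparison it was chosen for; among these, BARD1 lost its interaction call under 4 settings and EXO1 under 1. Of the interactions at other doses, RPA1 was called in 5 of 12 fits that left out a library, RAD51C in 2, XRCC3 in 3 and ATM in 5. Replicate numbers are not stated to pair libraries, and deviations from the group mean did not correlate between libraries of the same number (mean r -0.00028 over 459 pairs). Depth limits the genes with few counts most, such as FANCB with 48 in its lowest library. The replicate block gave 36 and 34 genes for 5 µM CP14.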
